A study of Mus musculus with 13 samples.

Results

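The genes described here encode the machinery that docks, primes and fuses secretory vesicles: synaptotagmins and synaptotagmin-like proteins, syntaxins and syntaxin-binding proteins, VAMPs, SNAPs, Rab3 GTPases, RIMs, Munc13 proteins (Unc13) and complexins. They were chosen by gene symbol alone from the array annotation, which gave 64 genes of 16593 on the array, each read through its brightest probe. Levels are log2 bead intensities from single-colour Illumina arrays in 13 samples of mouse cells. The strain given is C57BL/6. Whether it holds for the embryonic stem cell line named below was not checked, so strain could differ in comparisons with that line. Purified pancreatic islet progenitors made up 3 groups by time in differentiation: 4 samples at day 0, 3 at day 1 and 2 at day 4. Adult islets (2 samples) were the positive control and W9.5 embryonic stem cells, 1 line (2 samples), the negative control. The labels give no genotype, allele, added agent, age, purification marker or number of pooled animals for any group. Whether replicates are separate preparations is not given, so the error behind each p-value is that of these samples and could be purely technical.

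Hormone granules and synaptic vesicles fuse with the plasma membrane when a SNARE on the vesicle (a VAMP) zips together with SNAREs on the target membrane (a syntaxin and a SNAP). Sec1/Munc18 proteins and Munc13 proteins chaperone and prime this assembly, and Rab3 and its RIM effectors tether the vesicle. Complexins clamp and then assist the assembled complex, and some synaptotagmins sense calcium. In pancreatic beta cells this machinery couples calcium entry to insulin release, and related proteins serve traffic between the Golgi, endosomes and lysosomes in every cell.

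Of the 64 genes, 42 exceeded the background level, 7.24 log2 units, on at least 2 arrays and were tested, and the other 22 were not. Of the 42, 27 were above background on all 13 arrays and 15 on some of them. A gene of the latter kind entered the test through the groups where it is high. Of the 22 untested genes, 19 were above background on no array and 3 on 1 array, with 7.28 as the highest value among them. They include Snap25, the plasma membrane SNARE of neurons and endocrine cells, whose single probe read 6.89 and 7.06 in adult islets and between 6.88 and 7.06 on all arrays. Syt7, a high-affinity calcium sensor, has 3 probes, none of them above background on 2 arrays. Such readings bound the probe signal on this array and say nothing further about these transcripts. The other untested genes were Cplx3, Cplx4, Rab3c, Rims1, Rims4, Stx2, Stxbp3, Stxbp6, Syt2, Syt3, Syt6, Syt8, Syt10, Syt12, Syt14, Syt15, Syt17, Unc13c, Unc13d and Vamp5.

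The labelled cell types were checked against fixed markers. All 8 pluripotency markers tested were lower at day 0 than in embryonic stem cells, where Pou5f1 and Nanog averaged 11.76 and 11.60. Dppa5a and Sall4 were nonetheless above background on every pancreatic array (group means of 7.36 to 8.56 and 8.46 to 8.79), and Pou5f1 was so on 2 arrays each at day 0 and day 4. Ins2, Gcg and Sst averaged between 13.74 and 14.77 in the progenitors and adult islets and between 7.01 and 7.07 in embryonic stem cells. Of 15 islet endocrine markers, 13 were above background on both adult islet arrays, and Pcsk1 and Pax6 on neither. In adult islets 5 of the 15 were higher and 4 lower than at day 0. The log2 of the summed level of 5 endocrine progenitor markers was 14.43 to 14.94 at day 0 and 13.60 to 13.99 at day 1. It was 13.23 to 13.37 at day 4, 12.58 to 12.91 in adult islets and 9.34 to 9.36 in embryonic stem cells. Digestive enzyme transcripts were present in every pancreatic group: the log2 of the summed level of 7 acinar markers ran from 14.20 to 15.60 at day 0, 14.59 to 16.34 at day 1, 14.66 to 14.94 at day 4 and 17.11 to 17.33 in adult islets, against 10.19 to 10.30 in embryonic stem cells. In bulk RNA, fewer cells of a type and less RNA per cell cannot be told apart. Replicate arrays of a group correlated at 0.938 to 0.995 over the genes tested. The median SD of the 42 genes was 0.26 at day 0, 0.17 at day 1, 0.073 at day 4, 0.068 in adult islets and 0.14 in embryonic stem cells, and the test pools these spreads.

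Promoter sequence was given for 34 of the 42 tested genes (RefSeq, GRCm38.p6). Printed here are the 250 bases before the start of 5 genes whose levels carry the results below: Sytl4, a granule-bound Rab27 effector, at chrX:133981813-133982062 on the minus strand, Syt11, a synaptotagmin that lacks calcium binding, at chr3:88772600-88772849 on the minus strand, Rims3, a short RIM, at chr4:120854549-120854798 on the plus strand, Stx1a, the plasma membrane syntaxin of hormone release, at chr5:135023232-135023481 on the plus strand, and Cplx1, a complexin, at chr5:108550028-108550277 on the minus strand. Sequences run 5′ to 3′ on the gene's strand, and capitals mark a GC box (GGGCGG), or an E box of the letters CAGCTG or CAGATG, on either strand.
Sytl4: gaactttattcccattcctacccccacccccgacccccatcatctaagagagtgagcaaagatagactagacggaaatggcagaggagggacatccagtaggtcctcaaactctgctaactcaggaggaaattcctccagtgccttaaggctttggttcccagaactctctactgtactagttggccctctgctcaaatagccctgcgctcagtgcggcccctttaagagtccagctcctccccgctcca
Syt11: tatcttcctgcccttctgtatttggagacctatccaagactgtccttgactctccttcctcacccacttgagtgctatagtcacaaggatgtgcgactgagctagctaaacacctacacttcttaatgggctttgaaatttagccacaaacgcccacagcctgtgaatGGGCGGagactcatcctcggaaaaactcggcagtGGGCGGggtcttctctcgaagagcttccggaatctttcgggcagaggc
Rims3: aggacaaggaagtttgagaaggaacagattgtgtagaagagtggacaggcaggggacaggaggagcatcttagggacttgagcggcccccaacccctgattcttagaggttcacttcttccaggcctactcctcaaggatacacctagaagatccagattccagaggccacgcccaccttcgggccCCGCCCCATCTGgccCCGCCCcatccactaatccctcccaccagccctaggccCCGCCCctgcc
Stx1a: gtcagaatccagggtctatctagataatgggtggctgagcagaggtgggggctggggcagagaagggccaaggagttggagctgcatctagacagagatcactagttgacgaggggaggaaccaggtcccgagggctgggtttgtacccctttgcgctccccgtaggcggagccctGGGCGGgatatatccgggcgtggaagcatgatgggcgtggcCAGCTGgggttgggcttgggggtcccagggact
Cplx1: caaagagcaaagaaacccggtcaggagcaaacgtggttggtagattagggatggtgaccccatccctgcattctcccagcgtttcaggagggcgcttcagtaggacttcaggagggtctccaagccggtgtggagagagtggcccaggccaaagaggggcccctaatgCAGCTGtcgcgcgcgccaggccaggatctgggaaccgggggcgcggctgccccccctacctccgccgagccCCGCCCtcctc
The Sytl4 stretch held none of these letters, that of Syt11 held 2 GC boxes, that of Rims3 held 3 GC boxes and 1 CAGATG, which adjoins 1 of them without overlap, and those of Stx1a and Cplx1 held 1 GC box and 1 CAGCTG each. Over the 34 genes with a promoter, 21 (61.8%) had a GC box, against 35.4% of 27025 genes in the table. CAGCTG was found in 10 of the 34 (29.4%, against 14.7%), CAGATG in 3 (8.8%, against 16.3%) and the TATA box letters TATAAA in 2 (5.9%, against 14.3%). The letters TTCAGCACC, the left part of the element bound by the repressor REST, and TGACGTCA, the cAMP response element, were found in 0 of the 34, against 0.348% and 1.77% of all genes. The 34 genes had passed the probe filter, whereas the 27025 were not filtered, so these shares are of unlike sets. Shares over all genes tested on the array were not computed. These are matches of letters and not sites shown to be bound.

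Differences were tested in 1 limma model over 10382 genes, with a Benjamini-Hochberg adjusted p under 0.05 as the call. Between embryonic stem cells and day 0 progenitors, 25 of the 42 genes passed, 24 higher and 1 lower in progenitors, where 49.3% of all genes tested passed (26.5% higher, 22.8% lower). From day 0 to day 1, 3 of 42 passed, 2 higher and 1 lower (4.37% of all genes, with 2% higher and 2.37% lower). From day 0 to day 4, 8 passed, 7 higher and 1 lower (11.4% of all genes, with 5.39% higher and 6.05% lower). Day 4 against day 1 gave 2, both higher (1.55% of all genes, with 0.992% higher and 0.559% lower). Adult islets against day 4 gave 9, 5 higher and 4 lower (14.5% of all genes, with 7.53% higher and 6.93% lower), and adult islets against day 0 gave 23, 14 higher and 9 lower (34.1% of all genes, with 14.7% higher and 19.4% lower). Counting instead the genes whose arrays did not overlap between the groups, these were 31 of the 42 for day 0 against embryonic stem cells (58.1% of all genes), 9 for day 1 against day 0 (15.4%), 16 for day 4 against day 0 (43.9%), 25 for day 4 against day 1 (42%), 31 for adult islets against day 4 (70.9%) and 30 for adult islets against day 0 (56.1%). Groups of 2 arrays separate easily, as the shares over all genes show. These comparisons share groups and are not independent of each other. The median difference over the 42 genes was 0.67 log2 units for day 0 over embryonic stem cells, beside 0.05 over all genes tested, and lay between -0.01 and 0.11 in the other comparisons, beside -0.07 to 0.00.

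**Figure D1:**
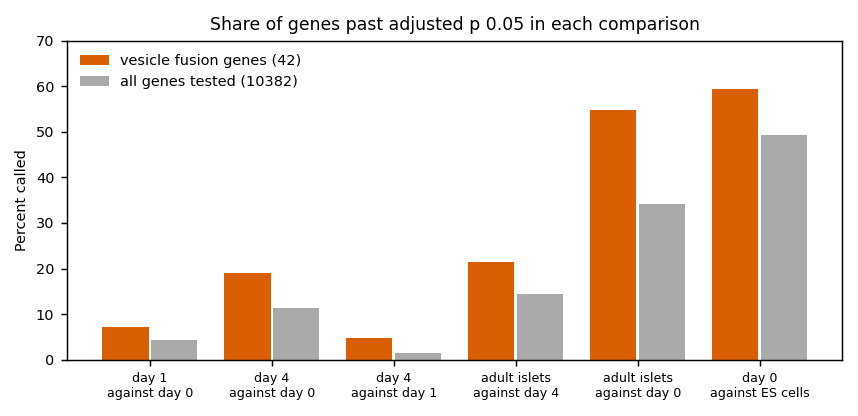
Percent of genes with an adjusted p under 0.05 (limma) in each of the 6 comparisons, for the 42 tested vesicle fusion genes (orange) and all 10382 genes tested (grey). The shares run from 4.76% to 59.5% for the former and from 1.55% to 49.3% for the latter.

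Among the synaptotagmins, Syt4 rose during differentiation and was highest in adult islets. Syt4 is a synaptotagmin whose first calcium-binding domain is altered, and it resides on dense core granules in mouse beta cells. Its log2 intensity was 7.07 and 7.13 in embryonic stem cells, both under background, and 7.29, 7.64, 7.55 and 7.23 at day 0. It read 7.85, 8.03 and 7.73 at day 1, 8.89 and 8.81 at day 4, and 11.85 and 11.72 in adult islets. The 5 groups did not overlap, and each stood above the one before. Syt4 rose by 1.42 ± 0.14 log2 units (SE) from day 0 to day 4 (limma adjusted p = 1.84e-04) and by 0.98 ± 0.14 from day 1 to day 4 (adjusted p = 0.0106). It was 2.93 ± 0.16 higher in adult islets than at day 4 (adjusted p = 7.14e-07), a 7.63-fold difference, and 20.5-fold higher in adult islets than at day 0 (adjusted p = 5.11e-09). Day 0 lay near background, with the array at 7.23 under it, so sizes against day 0 depend on the processing. Over the alternative runs listed below, adult islets against day 0 ran from 4.27 to 5.84 log2 units and day 4 against day 0 from 1.34 to 2.56. The first day's difference, 0.44 ± 0.12, did not pass (adjusted p = 0.0652).

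Syt11 rose in the first day and then stayed level. It read 8.74 and 8.91 in embryonic stem cells and 9.50, 9.60, 9.78 and 9.73 at day 0. All later arrays lay between 10.85 and 11.32: 11.24, 10.85 and 11.32 at day 1, 10.93 and 11.03 at day 4, and 11.17 and 11.18 in adult islets. The rise from day 0 to day 1 was 1.48 ± 0.12 (2.8-fold, limma adjusted p = 9.51e-05), and no array overlapped. Day 4 against day 1 differed by -0.16 ± 0.15 (adjusted p = 0.658) and adult islets against day 4 by 0.20 ± 0.16 (adjusted p = 0.511). The other 2 probes of Syt11 were near background, at group means of 6.92 to 7.37. Their direction from day 0 to day 1 was the same, and 1 of them ran the other way between embryonic stem cells and day 0. From day 1 to day 4 both ran the other way, from 7.13 to 7.26 and from 7.24 to 7.29, so the level course is that of the brightest probe. Averaging the 3 probes lowers the day 1 difference to 0.53, and the call was kept in every alternative run.

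Syt16 and Syt13 ran the other way. Syt16, which lacks the residues that bind calcium in other synaptotagmins, was under background in embryonic stem cells (6.94 and 7.01) and read 8.37, 8.67, 9.10 and 8.94 at day 0. At day 1 it read 7.62, 8.07 and 7.73, below every day 0 array, a difference of -0.96 ± 0.16 log2 units (limma adjusted p = 0.00961). It was 7.73 and 7.63 at day 4 and 7.50 and 7.40 in adult islets, where it was 1.32 ± 0.19 log2 units under day 0 (adjusted p = 3.35e-04). Syt13, an atypical synaptotagmin without calcium binding, was at 7.02 and 6.98 in embryonic stem cells and at 9.97, 10.11, 10.58 and 10.41 at day 0, at least 8.16-fold over embryonic stem cells (limma adjusted p = 3.89e-08). It held 9.98, 10.12 and 9.93 at day 1 and 10.27 on both day 4 arrays. The adult islet arrays, at 9.18 and 9.21, lay under every progenitor array, 1.08 ± 0.18 below day 4 (adjusted p = 0.00198) and 1.07 ± 0.15 below day 0 (adjusted p = 3.44e-04).

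The calcium-binding sensors of regulated release gave smaller differences. Syt5 averaged 7.28 ± 0.32 (SD, n = 2) in embryonic stem cells, 8.18 ± 0.27 (n = 4) at day 0 and 8.02 ± 0.12 (n = 3) at day 1. Day 4 stood at 8.35 ± 0.04 (n = 2), and adult islets at 9.01 ± 0.28 (n = 2). It was higher at day 0 than in embryonic stem cells (0.90 ± 0.19, limma adjusted p = 0.0022) and higher in adult islets than at day 0 (0.84 ± 0.19, adjusted p = 0.00595). Adult islets against day 4 gave 0.67 ± 0.22 (adjusted p = 0.0666). Syt9 was highest in embryonic stem cells (8.69 and 8.88), and the adult islet arrays (8.17 and 8.09) lay 0.46 ± 0.16 under day 0 (adjusted p = 0.0429), a call lost in 10 of 15 alternatives. Syt1, the fast sensor of neuronal synapses, was above background on 3 arrays only, 7.27 at day 4 and 7.49 and 7.39 in adult islets. It was at least 1.15-fold over day 0 in adult islets (adjusted p = 0.0135), but it entered the test only through these bright arrays. The call was kept in 12 of 15 alternatives, and was lost with the replicate block and without either adult islet array.

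**Figure D2:**
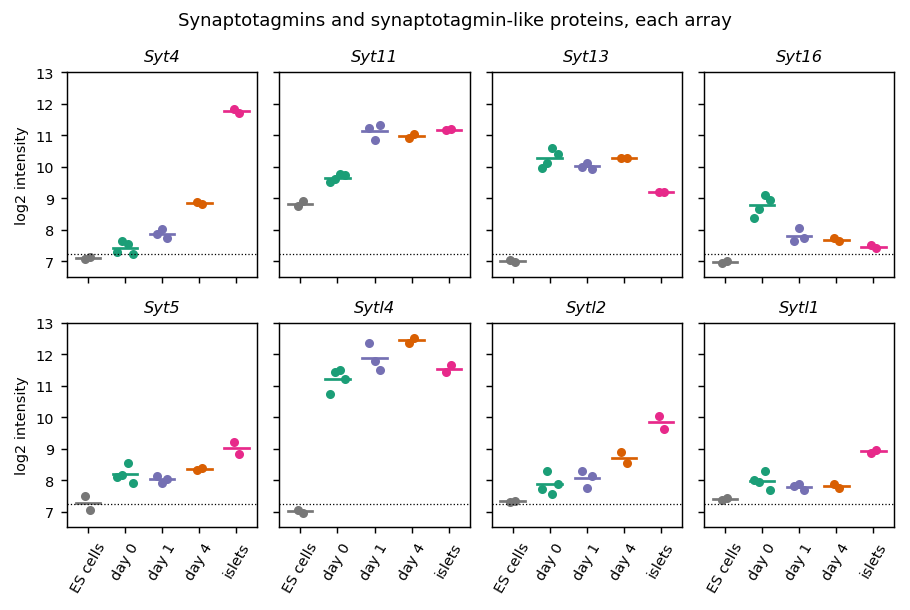
Log2 intensity of 8 synaptotagmin and synaptotagmin-like genes on each array (points), with group means (bars), for embryonic stem cells (n = 2), day 0 (n = 4), day 1 (n = 3), day 4 (n = 2) and adult islets (n = 2), with the background level of 7.24 dotted. Syt4 climbs in each group to 11.85 and 11.72 in adult islets, whereas Syt16 falls after day 0 and Syt13 is lower in adult islets than in any progenitor array.

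The synaptotagmin-like proteins bind Rab27 on granules. Sytl4, known as granuphilin, docks insulin granules in mouse beta cells, and was far higher at day 0 than in embryonic stem cells. It read 7.06 and 6.96 in embryonic stem cells and 10.72, 11.43, 11.48 and 11.22 at day 0, at least 15.7-fold over embryonic stem cells (limma adjusted p = 1.99e-07). Its promoter is the one above without a marked motif. It then read 12.37, 11.78 and 11.50 at day 1 and 12.35 and 12.52 at day 4, 1.23 ± 0.25 over day 0 (adjusted p = 0.0108). Adult islets, at 11.42 and 11.64, lay below both day 4 arrays, but the difference of -0.90 ± 0.28 did not pass (adjusted p = 0.057).

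Sytl2 and Sytl1 were highest in adult islets. Sytl2, which mouse alpha cells use to hold glucagon granules at the membrane, read 7.72, 8.28, 7.57 and 7.88 at day 0, 8.29, 7.75 and 8.13 at day 1, 8.88 and 8.55 at day 4 and 10.02 and 9.64 in adult islets. The rise from day 0 to day 4 was 0.85 ± 0.21 (limma adjusted p = 0.0261), a call kept in 9 of 15 alternatives. Adult islets were a further 1.11 ± 0.24 higher than day 4 (adjusted p = 0.0105). Sytl1, which takes part in zymogen granule release in mouse acinar cells, read 7.35 and 7.42 in embryonic stem cells and between 7.67 and 8.29 on all progenitor arrays. It was 8.87 and 8.94 in adult islets, 1.10 ± 0.17 over day 4 (adjusted p = 0.00125). The acinar markers were at their highest in adult islets too, by the ranges given above, and their part in this difference was not tested. Sytl5 was low throughout, between 7.31 and 8.12 on the progenitor arrays, and under background in adult islets (7.11 and 7.13), at least 1.41-fold below day 0 (adjusted p = 0.0117). Sytl3 passed in no comparison.

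Of the plasma membrane SNAREs, Stx1a rose and then was low in adult islets. It read 8.68 and 8.49 in embryonic stem cells, 10.26, 9.96, 10.30 and 10.10 at day 0, 10.63, 10.67 and 10.74 at day 1, 10.55 and 10.48 at day 4 and 9.50 and 9.24 in adult islets. No adult islet array overlapped a progenitor array, and none overlapped embryonic stem cells. Day 0 was 1.57 ± 0.12 above embryonic stem cells (limma adjusted p = 1.98e-06), and adult islets were 1.15 ± 0.14 below day 4 (adjusted p = 3.46e-04) and 0.79 ± 0.12 below day 0 (adjusted p = 6.68e-04). The first day's rise was 0.53 ± 0.11 (adjusted p = 0.0217). It lost its call in 8 of 17 alternatives, among them leaving out day 1 replicate 2 or 3 or day 0 replicate 4, with adjusted p from 0.0197 to 0.111 over them. Day 4 against day 0, at 0.36 ± 0.12, did not pass (adjusted p = 0.0899).

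Stx3, a syntaxin of apical and granule membranes, had a wide spread in embryonic stem cells (10.28 and 9.46). It read 8.97, 8.91, 9.65 and 9.45 at day 0 and 10.09 and 10.25 in adult islets, 0.93 ± 0.26 over day 0 (limma adjusted p = 0.0184). Stx4a, which serves both constitutive and insulin granule fusion, did not pass in any comparison, with group means of 8.33 to 8.50. Snap23, the widely expressed relative of Snap25, did not pass either, with means of 9.33 at day 4 to 9.88 in embryonic stem cells. Snap29, which pairs with endosomal and autophagosomal syntaxins, was 1.14 ± 0.14 higher at day 0 than in embryonic stem cells (adjusted p = 4.54e-05) and passed in no other comparison.

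Of the syntaxins of internal membranes, 4 were higher at day 0 than in embryonic stem cells. Stx5a, of the early Golgi (1.15 ± 0.14), Stx7 (1.09 ± 0.15) and Stx8 (1.08 ± 0.19), both of late endosomes, and Stx6, of the trans-Golgi and of immature granules (0.41 ± 0.14), passed there. The Stx6 call was lost in 6 of 15 alternatives (adjusted p from 0.022 to 0.26), and 1 of its 2 probes ran the other way. With the mean over a gene's probes the differences were 0.58 for Stx5a, 0.55 for Stx8 and 0.17 for Stx6. Stx8 was then lower in adult islets than at day 0 (-0.68 ± 0.19, limma adjusted p = 0.0176), though 1 of its 4 probes ran the other way, and Stx7 was higher (0.64 ± 0.15, adjusted p = 0.00734). Stx18, of the endoplasmic reticulum, was 0.94 ± 0.33 higher in adult islets than at day 0 (adjusted p = 0.0481), a call lost in 7 of 15 alternatives. Stx12, Stx16, Stx17 and Stx19 passed in no comparison, and of these Stx16 and Stx19 were above background on only 2 and 3 arrays.

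Among the vesicle SNAREs, Vamp2 and Vamp4 stepped up to adult islets and Vamp3 stepped down. Vamp2, the SNARE of insulin granules and synaptic vesicles, read 9.05 and 8.57 in embryonic stem cells, 9.86, 9.21, 9.30 and 9.56 at day 0, and 10.22, 9.39 and 9.72 at day 1. It was 10.34 and 10.09 at day 4 and 10.88 on both adult islet arrays, above every other array. Adult islets were 1.39 ± 0.24 over day 0 (limma adjusted p = 0.00119), while day 4 against day 0 (0.73 ± 0.24, adjusted p = 0.0732) and adult islets against day 4 (0.66 ± 0.28, adjusted p = 0.151) did not pass. Vamp4, of the trans-Golgi and immature granules, averaged 8.50 ± 0.12 (SD, n = 2) in embryonic stem cells, 9.88 ± 0.32 (n = 4) at day 0 and 9.93 ± 0.25 (n = 3) at day 1. Day 4 stood at 10.50 ± 0.04 (n = 2), and the adult islet arrays, at 11.27 ± 0.06 (n = 2), lay above all others. The difference of adult islets from day 0 was 1.39 ± 0.19 (adjusted p = 2.81e-04). Vamp3, of recycling endosomes, read 11.29 to 11.85 on the 9 progenitor arrays and 10.87 and 10.79 in adult islets, 0.78 ± 0.17 below day 4 (adjusted p = 0.011) and 0.61 ± 0.15 below day 0 (adjusted p = 0.00835). Vamp8, which serves zymogen granules and late endosomes, was 1.87 ± 0.16 higher at day 0 than in embryonic stem cells (adjusted p = 4.28e-06). Between adult islets and day 4 the difference of Vamp8 was 0.05 ± 0.19 (adjusted p = 0.928). Vamp7, of lysosomes, was also higher at day 0 than in embryonic stem cells (1.31 ± 0.28, adjusted p = 0.00248), and Vamp1 passed in no comparison.

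Unc13b and Stxbp2, a Munc13 and a Sec1/Munc18 protein, were lower in adult islets than at day 0. Unc13b, or Munc13-2, read 9.56 and 8.83 in embryonic stem cells and between 10.72 and 11.45 on the 9 progenitor arrays, with 10.15 and 10.19 in adult islets, below all of them. Day 0 exceeded embryonic stem cells by 1.68 ± 0.21 (limma adjusted p = 5.11e-05), and adult islets were 0.70 ± 0.21 below day 0 (adjusted p = 0.022). The latter call was kept in 11 of 15 alternatives, and was lost with cyclic loess, with the replicate block and without either adult islet array. The difference from day 4, -0.79 ± 0.24 (adjusted p = 0.0487), was lost in 9 of 13 alternatives (adjusted p from 0.00164 to 0.263). Stxbp2, or Munc18-2, which pairs with Stx3 in epithelial and blood cells, was 0.43 ± 0.15 lower in adult islets than at day 0 (adjusted p = 0.0462, lost in 9 of 15 alternatives). Stxbp4, a syntaxin 4 binding protein, passed in no comparison.

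Rims3 and 2 of the 3 tested Rab3 genes rose during differentiation. Rims3, a short RIM that keeps only the carboxy-terminal C2 domain of its family, read 9.35, 10.03, 9.27 and 10.15 at day 0, 10.65, 10.33 and 9.91 at day 1, 11.45 and 11.84 at day 4 and 11.81 on both adult islet arrays. Its rise to day 4 was 1.94 ± 0.34 (3.84-fold, limma adjusted p = 0.00589), and day 4 and adult islets overlapped. The embryonic stem cell arrays differed widely, at 9.43 and 8.29. Rims2, the long RIM of beta cells that holds granules near calcium channels, was higher at day 0 (8.41, 7.96, 8.80 and 8.67) than in embryonic stem cells (7.22 and 7.26) by 1.22 ± 0.20 (adjusted p = 4.1e-04), and its later differences did not pass.

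Rab3 GTPases ride on secretory vesicles. Rab3a, the main form of neurons and endocrine cells, read 8.81 and 8.49 in embryonic stem cells, 10.43, 10.36, 10.24 and 9.78 at day 0, a mean of 10.37 ± 0.37 (SD, n = 3) at day 1, 10.97 and 11.02 at day 4 and 10.61 and 10.57 in adult islets. It rose by 0.79 ± 0.21 from day 0 to day 4 (limma adjusted p = 0.0372, from 0.0349 to 0.233 over the alternatives, lost in 7 of 15). Rab3b was under background in embryonic stem cells (7.03 and 6.91). It read 7.32, 7.85, 7.81 and 7.60 at day 0 and 7.59, 7.51 and 7.28 at day 1, then 8.66 and 8.44 at day 4 and 8.65 and 8.64 in adult islets. The arrays thus fell into a low set through day 1 and a high set after it, with 1.09 ± 0.16 between day 1 and day 4 (adjusted p = 0.0111) and 0.10 ± 0.18 between day 4 and adult islets (adjusted p = 0.826). Rab3d, the form on zymogen granules in acinar cells, was 3.26 ± 0.19 higher at day 0 (11.08 to 11.63) than in embryonic stem cells (8.22 and 7.87, adjusted p = 1.7e-07). The acinar markers were higher at day 0 as well, by the ranges above, and their part in this was not tested. Rab3d read 11.58 and 11.56 in adult islets and 11.59 and 11.50 at day 4 (0.02 ± 0.21, adjusted p = 0.975).

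The complexins differed in opposite directions between groups. Cplx1 read 8.47 and 8.35 in embryonic stem cells and was under background on all 4 day 0 arrays (7.02, 6.98, 7.17 and 7.06), at least 2.25-fold lower and the 1 gene called lower there (limma adjusted p = 6.01e-06). It stayed near background at day 1 (7.53, 7.32 and 7.31) and day 4 (7.16 and 7.27) and stood at 8.47 and 8.85 in adult islets. Adult islets were 1.44 ± 0.14 over day 4 (adjusted p = 6.95e-05) and at least 2.67-fold over day 0 (adjusted p = 4.67e-06). With the day 4 array at 7.16 under background, the size against day 4 is uncertain, and it ran from 1.26 to 2.94 over the alternatives. Cplx2, the other complexin tested, was under background in embryonic stem cells (6.94 and 6.92). It spread from 7.03 to 8.79 at day 0 and read 8.03, 8.56 and 8.55 at day 1, 8.74 and 8.78 at day 4 and 8.14 and 7.65 in adult islets. It was at least 1.64-fold higher at day 0 than in embryonic stem cells (adjusted p = 0.0406, lost in 8 of 15 alternatives, with a range of 0.00278 to 0.141). The difference of adult islets from day 4, -0.87 ± 0.43, did not pass (adjusted p = 0.233).

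**Figure D3:**
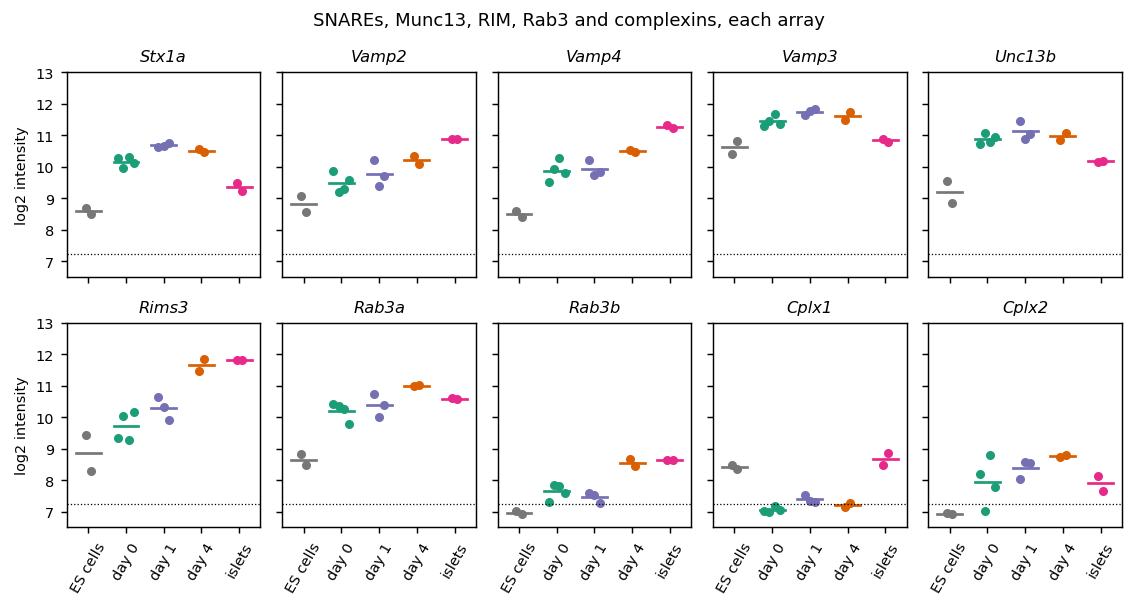
Log2 intensity of 10 SNARE, Munc13, RIM, Rab3 and complexin genes on each array (points), with group means (bars) and the background level of 7.24 dotted, for the same 5 groups. Vamp2, Vamp4, Rims3 and Rab3b have their highest values at day 4 or in adult islets, Stx1a and Unc13b are lower in adult islets than on any progenitor array, and Cplx1 is near background on the progenitor arrays.

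The 8 calls from day 0 to day 4 rest on 2 arrays at day 4. Without day 4 replicate 1, 3 of the 8 passed (Syt4, Syt11 and Rims3), and without replicate 2, 3 passed (Syt4, Syt11 and Rab3b). Both calls of day 4 against day 1, Syt4 and Rab3b, were lost without either day 4 array (0 calls by limma, with 3 and 6 of the 42 genes at an unadjusted p under 0.05), and that of Rab3b also without day 1 replicate 3. With 1 adult islet array left out, 13 or 14 of the 23 calls against day 0 remained.

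**Figure D4:**
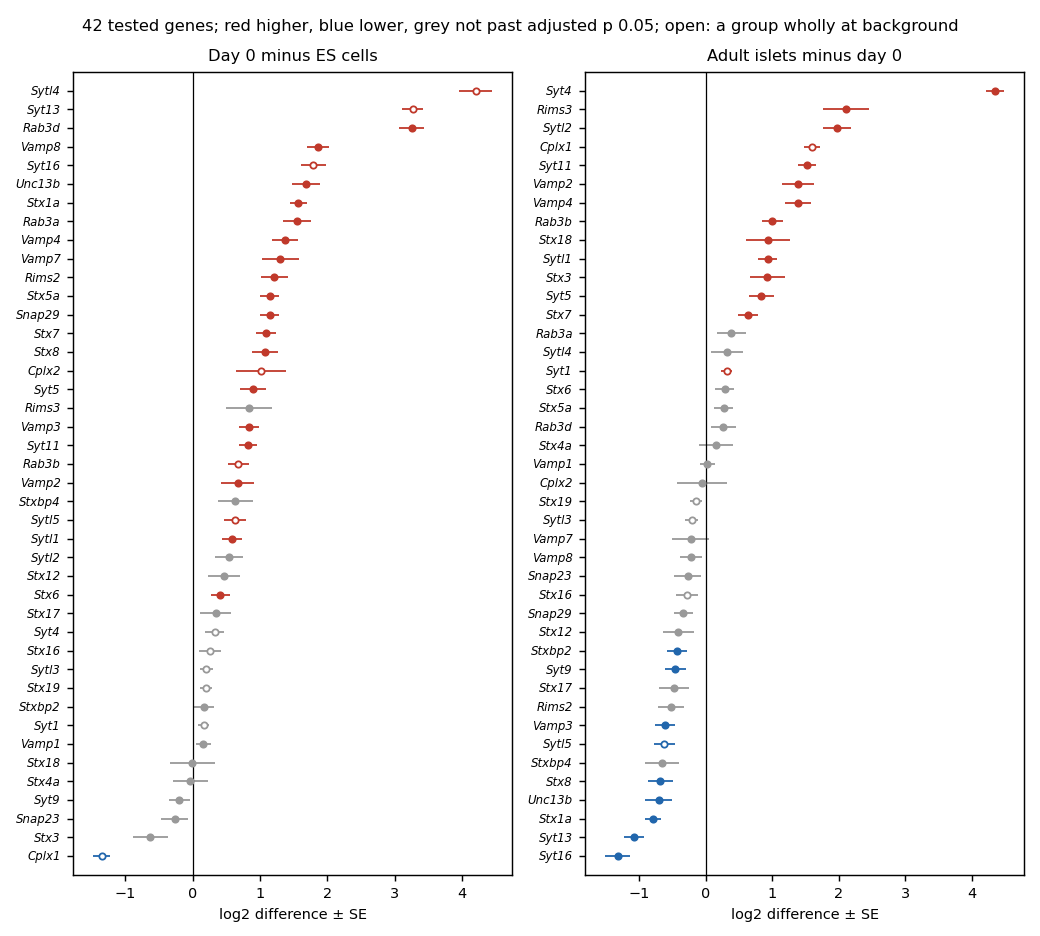
Log2 difference ± SE of each of the 42 tested genes for day 0 minus embryonic stem cells (left) and adult islets minus day 0 (right), sorted by size, with called genes in red (higher) or blue (lower). Open points have no array above background in at least 1 of the groups, so that the plotted difference is not a measured size (Sytl4 and Syt13 on the left, at least 15.7-fold and 8.16-fold). Among filled points Rab3d is at 3.26 on the left and Syt4 at 4.35 on the right.

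The remaining genes of the pathway came from a list of 82 others, of which 73 were on the array and 59 were tested. Day 0 against embryonic stem cells gave 25 higher and 10 lower among the 59, 59.3% of them beside 49.3% of all genes. Cadps, the priming factor of dense core granules, was under background on both embryonic stem cell arrays and at least 16.6-fold higher at day 0 (limma adjusted p = 4.55e-08), and the vesicle protein synaptophysin, Syp, was 3.86 ± 0.23 higher. Rab27a, the GTPase that Sytl4 binds, was 2.43 ± 0.27 higher at day 0 than in embryonic stem cells, and Napa, which recruits the ATPase that takes SNARE complexes apart, 2.10 ± 0.23. From day 0 to day 1, 0 of the 59 rose and 1 fell, 1.69% of them beside 4.37% of all genes. The faller was the exocyst subunit Exoc7 (-1.03 ± 0.15, adjusted p = 0.00304). By day 4, 7 were higher and 4 lower than at day 0, 18.6% beside 11.4% of all genes. Of 14 vesicle membrane proteins 4 rose and 1 fell, the risers including Sv2b (1.00 ± 0.12), and Syngr1, synaptogyrin 1, being the faller (at least 2.01-fold, under background at day 4). Of 7 exocyst subunits 1 rose and 2 fell. Against day 1, 1 gene of the 59 was called at day 4, 1.69% of them beside 1.55% of all genes. That gene was Sv2b (1.27 ± 0.13, adjusted p = 0.00164).

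Adult islets against day 0 gave 18 higher and 9 lower of the 59, 45.8% beside 34.1% of all genes. Of the 14 vesicle membrane proteins 9 were higher and 1 lower, among them the synapsins Syn2 (1.75 ± 0.12, limma adjusted p = 2.45e-06) and Syn1 (1.51 ± 0.24). Of 7 exocyst subunits, 0 were higher and 3 lower. The 2 CAPS priming factors ran opposite ways: Cadps was lower (-1.05 ± 0.20, adjusted p = 0.00249) and Cadps2 higher (0.92 ± 0.14, adjusted p = 6.12e-04). Adult islets against day 4 gave 4 higher and 1 lower, 8.47% beside 14.5% of all genes, with Syn2 at 1.11 ± 0.14 (adjusted p = 4.48e-04).

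Markers of other cell types moved with several comparisons. Both erythroid markers on the array, Hba-a1 and Alas2, were higher at day 0 than in embryonic stem cells and lower at day 4 than at day 0. Their summed level was 7.94 to 8.06 in embryonic stem cells, 13.51 to 14.95 at day 0, 11.29 to 15.02 at day 1, 8.11 to 8.26 at day 4 and 10.82 to 11.86 in adult islets. From day 0 to day 4, 3 of 9 leukocyte, 2 of 9 neuronal, 1 of 7 endothelial and 1 of 4 ductal markers tested fell as well, and by day 1, 2 of 9 leukocyte and 1 of 9 neuronal markers had. Day 0 against embryonic stem cells had 4 of 4 ductal and 7 of 7 acinar markers higher. In adult islets against day 4, 5 of 7 acinar, 8 of 9 leukocyte and 7 of 7 endothelial markers tested were higher, and 0 of each were lower. The summed leukocyte level ran from 13.04 to 13.95 in adult islets and from 10.43 to 11.64 on the progenitor arrays, and the endothelial level from 12.82 to 12.93 against 10.31 to 11.28. The part of all these in the differences above was not tested. Of 11 neuronal markers, 7 were above background on both adult islet arrays, among them Stmn2 and Stmn3, and 4 on neither, among them Tubb3, Nefl and Dbh. Of the 9 tested, 3 were higher and 1 lower in adult islets than at day 4, and likewise against day 0. Day 0 against embryonic stem cells had 4 higher and 1 lower. The part of neuronal RNA in the differences above was not tested either. The summed neuronal level was 11.05 and 11.12 on the adult islet arrays, 10.89 to 11.36 on the progenitor arrays and 11.51 to 11.69 in embryonic stem cells.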

How the data were processed

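Per the labels' protocols, RNA was labelled with biotin using the Illumina TotalPrep kit and read on bead arrays. The authors deposited 1 normalized log2 intensity per probe and array, and their normalization is not given in the sources used here; base 2 is inferred from their range (6.73 to 15.20), and a variance-stabilising transform, which would compress dim differences, is possible. A table of signals before normalization was not used, since its 26 columns match no sample label, so detection p-values, slides and scans were not analysed here. The number of arrays limits the precision.

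The genes, lists and tests were chosen with earlier results of these data known. Of 25697 probes, 23978 name 1 gene, 1719 none and 0 several. Background was set at the mode of all values (6.98) plus 5 times their SD below it (0.052). Probes above it on at least 2 arrays (14946) were kept, and the brightest per symbol was used (10382 genes). Per array, 44.1% to 46.4% of probes were above background. A model of 5 group means on 13 arrays was fitted with limma 3.58.1 in R 4.3.3 (lmFit, eBayes without trend, 2.94 prior degrees of freedom beside 8 residual), from which 6 comparisons were drawn, with p-values adjusted over all genes tested. The fit was tested on simulated data. Differences are log2 ± SE. Where no array of 1 group was above background, the fold is at least the brighter mean over the higher, per array, of the background level and the probe. Genes named in full are those called in any comparison and a fixed core of release genes. From the other pathway genes, up to 2 of the largest called differences per sublist and comparison were open to naming; Rab27a and Napa are of these. Alternatives were no or a stricter probe filter, median scaling, cyclic loess, background subtraction (mode subtracted, offset 16), the mean of a gene's probes, an intensity trend with a robust prior, only the groups compared, a replicate block, each array left out, and 1 added after seeing the data.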

Additional observations from a re-analysis of the deposited data

How the results depend on the processing

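Of 70 calls among the 42 genes over the 6 comparisons, 42 held in every alternative run, and 0 differences of a called gene changed sign. The number of genes called moved by over 1.5 times in these cases. With only the 2 groups compared in the fit, 1 gene was called for day 1 against day 0 (8 at an unadjusted p under 0.05), 0 for day 4 against day 1 by limma (14 unadjusted) and 22 for adult islets against day 4, including the 9 reported. With background subtraction 1 was called for day 4 against day 1. With group means removed, 3 of 21 same-numbered pairs from different groups correlated over 0.1 (range -0.31 to 0.29). Of 13 arrays, 3 correlated best with their own number. In groups of 2 arrays these values mirror each other (r = -1), so that many of the pairs are not independent. Among differently numbered pairs from different groups, day 0 replicate 3 correlated at 0.55 with day 1 replicate 2 and at -0.40 with day 1 replicate 1. Day 0 replicate 4 correlated at 0.37 with day 1 replicate 3. Pairing under other numbers was not tested. With the replicate block, 5 genes were called for day 4 against day 0 and 0 for day 4 against day 1 (7 unadjusted). Leaving out 1 array at a time gave 2 to 4 calls for day 1 against day 0, 3 to 9 for day 4 against day 0, 0 to 2 for day 4 against day 1, 5 to 7 for adult islets against day 4, 13 to 23 for adult islets against day 0 and 22 to 27 for day 0 against embryonic stem cells. Without day 0 replicate 3 and day 1 replicate 2 together, an alternative chosen after seeing the data because these had the lowest and the highest acinar level of their groups, 2 genes were called for day 1 against day 0, and Stx1a was lost (adjusted p = 0.0583). Differences of genes near background are limited by the signal over it, and 2 arrays in 3 of the groups limit the day 4 and islet calls.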

Other observations

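Of the 42 tested genes, 17 (40.5%) had their highest group mean in adult islets, and 2 (4.76%) in embryonic stem cells. The progenitor groups held the other maxima: 9 (21.4%) at day 0, 8 (19%) at day 1, then 6 (14.3%) at day 4. Over all 10382 genes tested the shares were 21.9% for adult islets and 32% for embryonic stem cells. For day 0, day 1 and day 4 they were 19.3%, 15.3% and 11.5%, near those of the 42 genes. The 2 genes highest in embryonic stem cells were Snap23 and Syt9. Of the 42 genes, 9 were called in no comparison.

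The 4 probes of Stx8 do not follow 1 course. The brightest over all arrays, used above, averaged 9.95 at day 0 and 9.27 in adult islets, and 2 others were also lower in adult islets, from 9.67 to 9.43 and from 8.01 to 7.43. The fourth averaged 8.96 at day 0 and 9.91 in adult islets. With the mean of the 4 probes the difference was -0.14 and was not called (adjusted p = 0.588, range over the alternatives 0.00936 to 0.588).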
